A study of Mus musculus with 6 samples.

Results

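The genes described here are 7 genes of plasminogen activation and cell migration: Plau, Plaur, Plat, Serpine2, Tnc, Inhba and Thbs1. They were taken by gene name from a count table of 47729 genes, and all 7 were found there and passed the filter on low counts, beside 17023 genes tested in all. The table holds RNA sequencing of mouse epidermis after AKBA gel (3 libraries) or control gel (3 libraries). AKBA commonly stands for acetyl-11-keto-β-boswellic acid, one of the triterpenoids of frankincense (Boswellia) resin. All mice were wild type on a C57BL/6 background, the epidermis was parted from the dermis with Dispase II, and neither the age of the mice nor the length of the treatment is given in the sources used. The control libraries are described with the letters IMQ, left unexplained in the labels, and a treatment of either group beyond its gel is not described there. Since the labels do not tie the 3 libraries of a group to separate mice, the p-values cover the spread between libraries alone, and that spread may be technical.

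Plasminogen is a blood and tissue zymogen that is cut to plasmin, a protease that dissolves fibrin and other matrix. The cut is made by the urokinase-type activator (Plau), which is held at the cell surface by its receptor (Plaur), or by the tissue-type activator (Plat). Serpins such as Serpine2 inhibit both activators. At a skin wound, keratinocytes at the moving edge make the urokinase-type activator and its receptor and travel over a provisional matrix that holds tenascin C (Tnc) and thrombospondin 1 (Thbs1). Activin A, the dimer of the chain encoded by Inhba, is a signalling protein of the TGF-β family that is also induced in wounded skin.

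The libraries held 19066045 to 22760432 counts. Keratinocyte markers (6 genes) summed to 41760 to 62230 CPM (counts scaled so that libraries of unequal depth compare), fibroblast markers (8 genes) to 19870 to 36620 CPM and skeletal muscle markers (7 genes) to 4051 to 7538 CPM, so the libraries held transcripts of dermis and muscle beside those of epidermis. In such bulk tissue, fewer cells of a type and less RNA per cell cannot be told apart. Across all genes edgeR's quasi-likelihood test called 0 of 17023 genes at an adjusted p under 0.05 (0.0%), with 2291 at an unadjusted p under 0.05, and DESeq2 called 292 (1.68% of the genes it adjusted).

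The 7 genes lie on 7 different chromosomes. For 4 of them (Plaur, Serpine2, Tnc and Inhba) RefSeq's table on GRCm38.p6 gave a promoter, and the 250 bases before the start are shown for all 4, so that a gene that varied much between the libraries (Tnc, 26.6 times) stands beside one that varied little (Serpine2, 1.68 times). Not matched were Plau, Plat and Thbs1. Capitals mark every match, on either strand, to TGANTCA (the AP-1 motif, which reads the same on both strands), TATAAA (the TATA motif) or GGGCGG (the GC box), and neighbouring or overlapping GC boxes run together.

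Tnc, chr4:64047016-64047265, minus strand: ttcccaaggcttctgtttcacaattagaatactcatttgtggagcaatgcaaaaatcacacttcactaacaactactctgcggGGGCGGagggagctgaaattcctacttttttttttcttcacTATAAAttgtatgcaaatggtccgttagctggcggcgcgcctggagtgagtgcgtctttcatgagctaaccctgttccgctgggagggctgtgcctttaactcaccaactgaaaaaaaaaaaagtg
Serpine2, chr1:79858666-79858915, minus strand: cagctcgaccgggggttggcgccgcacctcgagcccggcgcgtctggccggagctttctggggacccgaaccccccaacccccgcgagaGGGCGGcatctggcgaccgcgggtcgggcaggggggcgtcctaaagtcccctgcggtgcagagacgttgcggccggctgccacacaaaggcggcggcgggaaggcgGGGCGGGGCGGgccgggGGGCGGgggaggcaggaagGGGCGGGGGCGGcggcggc
Plaur, chr7:24462233-24462482, plus strand: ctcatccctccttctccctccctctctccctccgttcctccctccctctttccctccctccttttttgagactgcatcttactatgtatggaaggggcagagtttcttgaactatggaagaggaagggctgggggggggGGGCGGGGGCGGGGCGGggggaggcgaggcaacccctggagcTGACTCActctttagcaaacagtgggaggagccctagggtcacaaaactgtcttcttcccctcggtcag
Inhba, chr13:16011601-16011850, plus strand: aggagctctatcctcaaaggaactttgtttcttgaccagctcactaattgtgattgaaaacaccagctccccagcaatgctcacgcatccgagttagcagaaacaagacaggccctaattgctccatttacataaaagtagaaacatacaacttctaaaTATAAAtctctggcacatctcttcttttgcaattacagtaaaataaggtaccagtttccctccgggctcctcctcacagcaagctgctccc

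The window of Plaur holds 1 AP-1 match, 69 to 63 bases before the start, and 3 GC boxes. That of Serpine2 holds 6 GC boxes and is 78.8% G and C, against a median of 52.4% over all windows. The windows of Tnc and Inhba each hold 1 TATAAA, 126 to 121 and 91 to 86 bases before the start, and are 44.8% and 43.2% G and C. RefSeq gives Tnc a second start, whose window (chr4:64046937-64047186) overlaps the one shown, is 51.2% G and C and holds the TATAAA 205 to 200 bases before that start and 1 GC box. The start used for Serpine2 lies inside the span of that gene in GENCODE M21 (79794197 to 79861180), which begins farther upstream. Over 32851 windows of the same length, 6.75% hold TGANTCA, 12.4% TATAAA and 32.7% GGGCGG. The matches are a description of these letters and not of binding.

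All 7 genes had lower fitted levels under AKBA gel than under control gel, with log2 fold changes from -2.62 (Tnc) to -0.31 (Plau), and none passed the test across all genes. Their median was -0.64, beside 0.0037 for all genes tested, of which 49.6% were below 0. At an unadjusted p under 0.05 stood 4 of the 7 (Plat, Tnc, Serpine2 and Thbs1), where 7.01% of all genes tested were lower at that level. In 2 of the 7 (Plat and Serpine2) all AKBA libraries were lower than all control libraries, which held for 9.1% of all genes tested. No member was higher under AKBA gel by either rule, beside 6.45% of all genes at an unadjusted p under 0.05 and 9.28% with groups that did not overlap. Of the 4 at an unadjusted p under 0.05, 1 was left without AKBA gel replicate 2 and 2 without AKBA gel replicate 1. With AKBA gel replicate 2 and control gel replicate 3 both left out, 1 was left. Without control gel replicate 2, Tnc (edgeR unadjusted p = 0.0525) and Thbs1 (0.118) dropped out and Plau (0.0322) came in. Without control gel replicate 3, Serpine2 (0.0553) and Thbs1 (0.11) dropped out and Plaur (0.0436) and Inhba (0.0413) came in. The members were chosen with earlier results of these data known, so these counts describe the 7 genes and give no test of them as a group.

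**Figure D1:**
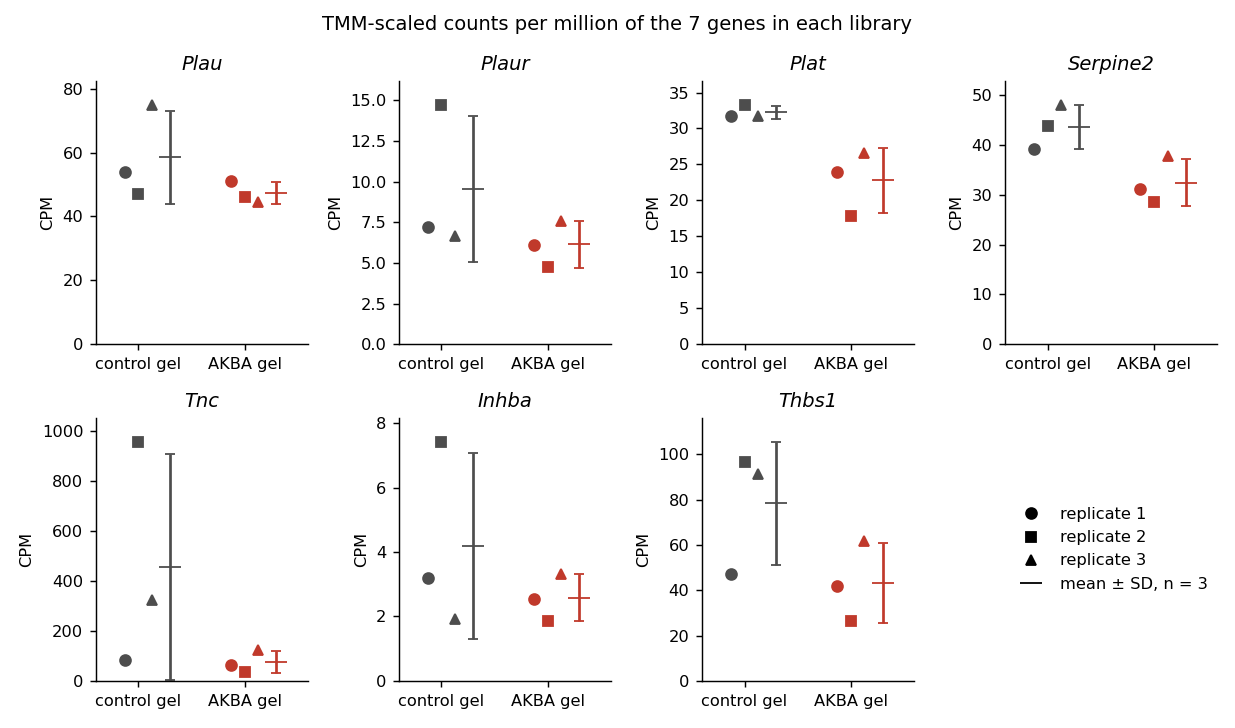
CPM after TMM scaling (y axis, from 0 in each panel) of the 7 genes in the 3 control gel libraries (grey) and the 3 AKBA gel libraries (red), with the mean ± SD beside each group. The groups do not overlap for Plat and Serpine2, and control gel replicate 2 stands highest for Plaur, Plat, Tnc, Inhba and Thbs1.

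Plau, the urokinase-type activator (chromosome 14, 20836660 to 20843385, protein coding), was at 53.9, 46.9 and 74.9 CPM in control gel replicates 1 to 3 and at 51.2, 46.1 and 44.6 CPM in AKBA gel replicates 1 to 3. Control gel replicate 3 was the high library, and control gel replicate 2 lay within the range of the AKBA libraries. The means were 58.6 ± 14.6 against 47.3 ± 3.46 CPM (SD, n = 3 each). The log2 fold change by edgeR was -0.31 ± 0.18 (SE, adjusted p = 0.488), and without control gel replicate 3 it was -0.09. Per length, Plau had the highest level of the 7 genes in 4 of the 6 libraries, at 19.4 to 29.3 FPKM over all 6.

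Plat, the tissue-type activator (chromosome 8, 22757727 to 22782844), was at 31.8, 33.3 and 31.7 CPM in the control libraries and at 24.0, 17.8 and 26.6 CPM in the AKBA libraries. The control libraries differed by at most 1.05 times, and all AKBA libraries were lower. The means were 32.2 ± 0.887 against 22.8 ± 4.51 CPM (SD, n = 3 each). The log2 fold change was -0.50 ± 0.16 (SE, edgeR adjusted p = 0.334), and it stayed between -0.61 and -0.35 in 13 alternative settings, in each of which the unadjusted p was under 0.05. Endothelial cells are a known source of this activator. All 8 endothelial markers were below 0 (49.6% of all genes tested), and none was at 0 counts. Lower at an unadjusted p under 0.05 were 2 of them, beside 7.01% of all genes tested. Their sum was 223 to 394 CPM with AKBA gel and 364 to 482 CPM with control gel. Their part in the difference was not tested.

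Plaur, the receptor that holds the urokinase-type activator at the cell surface (chromosome 7, 24462484 to 24475968), was at 7.24, 14.7 and 6.66 CPM in the control libraries and at 6.08, 4.73 and 7.58 CPM in the AKBA libraries. A single control library, replicate 2, was high, and the other control libraries lay below AKBA gel replicate 3. The means were 9.54 ± 4.49 against 6.13 ± 1.43 CPM (SD, n = 3 each), with a log2 fold change of -0.64 ± 0.34 (SE, edgeR adjusted p = 0.461). Without control gel replicate 2 the log2 fold change was -0.19. Macrophages also carry this receptor. All 8 macrophage markers were below 0 (49.6% of all genes tested), and none was at 0 counts. Lower at an unadjusted p under 0.05 were 4 of them, beside 7.01% of all genes tested. Their sum was 1529 to 1661 CPM with AKBA gel and 1704 to 2346 CPM with control gel. In control gel replicates 1 to 3 that sum was 2158, 1704 and 2346 CPM. The part of macrophages in the values of Plaur was not tested.

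Serpine2, protease nexin-1, an inhibitor of thrombin and of both activators (chromosome 1, 79794197 to 79861180), was at 39.1, 43.8 and 48.0 CPM in the control libraries and at 31.2, 28.5 and 37.7 CPM in the AKBA libraries. All AKBA libraries were below all control libraries, with a narrow gap between AKBA gel replicate 3 and control gel replicate 1. The means were 43.6 ± 4.41 against 32.5 ± 4.72 CPM (SD, n = 3 each), and the log2 fold change was -0.43 ± 0.14 (SE, edgeR adjusted p = 0.336). The highest and the lowest library differed by 1.68 times, as they did for Plau.

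Tnc, a matrix glycoprotein that is scarce in resting skin and abundant in healing skin (chromosome 4, 63959785 to 64047015), was at 84.5, 956 and 322.5 CPM in the control libraries and at 63.6, 36.0 and 121.8 CPM in the AKBA libraries. Control gel replicates 2 and 3 were above every other library, and control gel replicate 1 was below AKBA gel replicate 3, so the groups overlap. The highest library was 26.6 times the lowest, and within the control group the range was 11.3 times. The means were 454 ± 450.5 against 73.8 ± 43.8 CPM (SD, n = 3 each). The log2 fold change was -2.62 ± 0.83 (SE, edgeR adjusted p = 0.334), the 32nd lowest of all genes tested. Without control gel replicate 2 it was -1.47, and without AKBA gel replicate 3 it was -3.17. Fibroblasts are a known source of Tnc. Of 8 fibroblast markers 7 were below 0 (49.6% of all genes tested), and none was at 0 counts. Lower at an unadjusted p under 0.05 was 1 of them, Fbn1 (7.01% of all genes tested). The markers summed to 20090 to 26940 CPM with AKBA gel and 19870 to 36620 CPM with control gel. Their part in the values of Tnc was not tested.

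Tnc was the member whose call turned on the method. In the authors' deposited table it has a log2 fold change of -2.56 and an adjusted p of 0.00542 and is called lower, as are 158 genes in all (0.331% of the table). That share is over 47729 genes, 19134 of them with no count in any library, and not over the 17023 tested by edgeR. The 273 genes called there in either direction had log2 fold changes of at least 1 in size, while 389 had an adjusted p under 0.05. None of the other 6 genes is called in the authors' deposited table, where their adjusted p runs from 0.136 (Thbs1) to 0.694 (Plau). With DESeq2 the adjusted p of Tnc was 0.139, and over 13 alternatives it ran from 0.107 to 0.972.

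Thbs1, a trimeric matrix glycoprotein that binds cell-surface receptors and can activate latent TGF-β (chromosome 2, 118111876 to 118127133), was at 47.0, 96.7 and 91.3 CPM in the control libraries and at 41.7, 26.5 and 61.6 CPM in the AKBA libraries. Control gel replicates 2 and 3 were high, as for Tnc, and control gel replicate 1 was below AKBA gel replicate 3. The means were 78.3 ± 27.2 against 43.3 ± 17.6 CPM (SD, n = 3 each), and the log2 fold change was -0.86 ± 0.35 (SE, edgeR adjusted p = 0.363). It was -0.60 without AKBA gel replicate 2, -1.18 without AKBA gel replicate 3 and -0.48 with AKBA gel replicate 2 and control gel replicate 3 both left out. Thbs1 is stored in platelets and is induced early after stimulation of cells. All 10 immediate early genes were below 0 (49.6% of all genes tested), 5 of them at an unadjusted p under 0.05 (7.01%). Their sum was 450 to 491 CPM with AKBA gel and 505 to 938.5 CPM with control gel. Platelet markers (3 of 5 tested, none at an unadjusted p under 0.05) summed to 29.9 to 36.2 against 35.3 to 55.0 CPM. Their part in the values of Thbs1 was not tested.

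Inhba, the chain of activin A (chromosome 13, 16011851 to 16031621), had 35 to 170 counts per library and was the lowest of the 7 genes per length. It was at 3.19, 7.42 and 1.92 CPM in the control libraries and at 2.55, 1.86 and 3.32 CPM in the AKBA libraries. Control gel replicate 2 was high and control gel replicate 3 was near the lowest AKBA library. The means were 4.18 ± 2.88 against 2.58 ± 0.732 CPM (SD, n = 3 each), with a log2 fold change of -0.69 ± 0.49 (SE, edgeR adjusted p = 0.566). Without control gel replicate 2 the log2 fold change was 0.0092, so the lower mean rests on that library. Hair follicle markers (7 genes) summed to 301, 3172 and 107 CPM in control gel replicates 1 to 3. In AKBA gel replicates 1 to 3 they summed to 28.9, 937 and 2237 CPM. None of the 7 follicle markers was at an unadjusted p under 0.05, and their part in the values of Inhba was not tested.

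**Figure D2:**
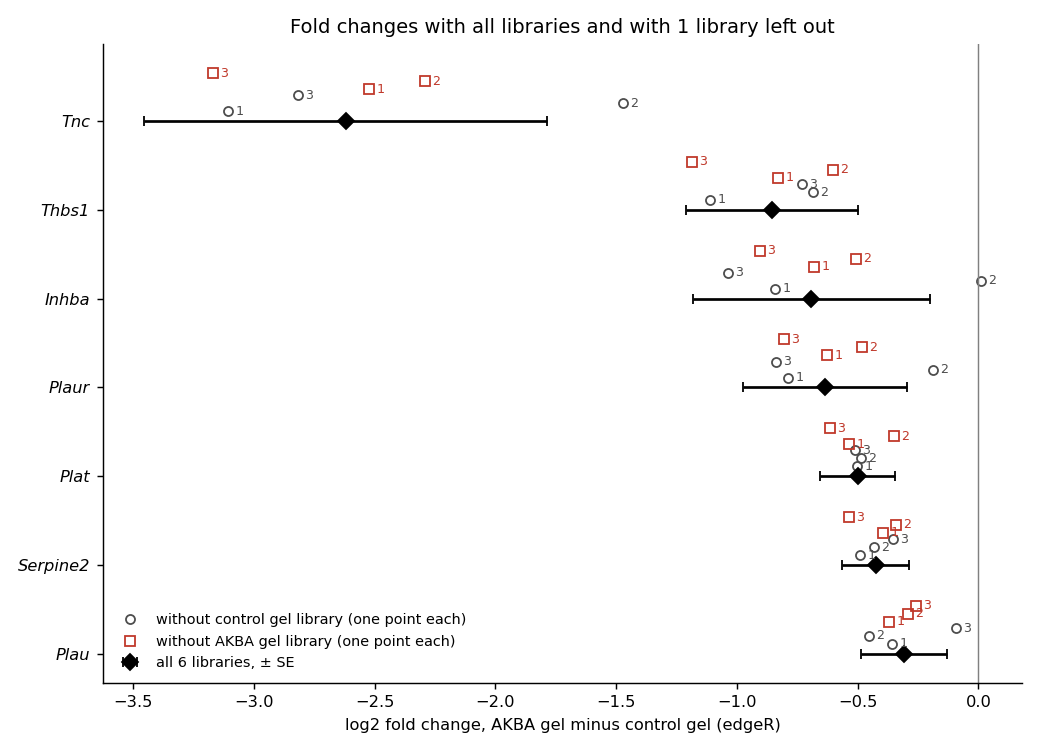
Log2 fold change, AKBA gel minus control gel (x axis), for each gene with all 6 libraries (diamond, ± SE) and with 1 library left out (circles for a control gel library, squares for an AKBA gel library, numbered by replicate). Leaving out control gel replicate 2 moves Tnc to -1.47, Plaur to -0.19 and Inhba to 0.0092, while Plat stays between -0.61 and -0.35.

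The 7 genes did not all rank the libraries in the same way, though most shared their highest and their lowest library. Control gel replicate 2 was the highest library for 5 genes and control gel replicate 3 for the other 2 (Plau and Serpine2). AKBA gel replicate 2 was the lowest library for every gene but Plau, whose lowest was AKBA gel replicate 3. That same library, AKBA gel replicate 3, was the highest of its group for the other 6 genes. Control gel replicate 1 was the highest library of its group for none.

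The order of levels per length followed the same libraries. Plau led in all AKBA libraries and in control gel replicate 1, and Tnc led in control gel replicates 2 and 3, at 126.8 and 38.0 FPKM. In the AKBA group the levels were 20.4 ± 0.966 FPKM for Plau, 9.76 ± 6.26 for Tnc, 9.14 ± 2.14 for Plat, 7.28 ± 3.29 for Thbs1, 3.98 ± 0.777 for Serpine2, 2.38 ± 0.662 for Plaur and 1.33 ± 0.434 for Inhba (SD, n = 3 each). Tnc, Plat and Thbs1 were neighbours in that order whose levels lay within their spread. Inhba was last in all 6 libraries. In the control group Tnc was at 58.6 ± 60.5 FPKM and Plau at 24.5 ± 4.44 FPKM, and their order changed between the libraries.

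**Figure D3:**
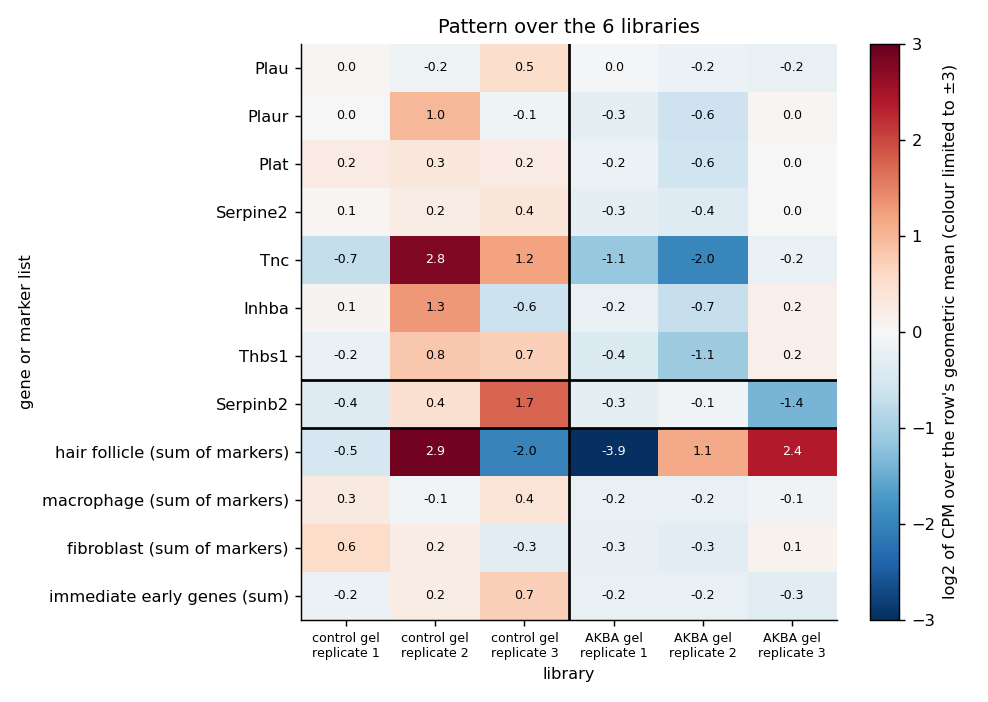
Log2 of each library's CPM over the geometric mean of its row (colour and printed value) for the 7 genes, the inhibitor Serpinb2 and the summed markers of 4 lists, with the control gel libraries to the left of the line. Tnc and Thbs1 are high in control gel replicates 2 and 3, and Plaur and Inhba in replicate 2 alone.

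For each gene the 3 genes of at least 5 CPM whose log2 CPM followed it most closely over the 6 libraries were looked up among all genes tested. The closest was Tmem50b for Plau (Pearson r = 0.995), G3bp2 for Plat (0.998), 9130008F23Rik for Plaur (0.988), Nfkb1 for Serpine2 (0.998), Il17ra for Tnc (0.996), Polr2b for Thbs1 (0.996) and Rnf122 for Inhba (0.978). The next were Stam2 and Pglyrp4 for Plau, Atxn1l and Fbn1 for Plat, Tagln and Slc2a13 for Plaur, Asap1 and Pgm3 for Serpine2, Prpf19 and Synpo for Tnc, Sec24b and Ece1 for Thbs1, and Mical1 and Slc2a13 for Inhba. Slc2a13 was named for both Plaur and Inhba. These r values rest on 6 libraries that share their scaling, were picked as the highest of about 12260 genes and are given as a description with no test. A like pattern was not a like size: Il17ra was at 32.3 to 50.4 CPM over the 6 libraries, where Tnc spanned 36.0 to 956 CPM.

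Other genes of the plasminogen system included serpins, receptors and plasminogen itself. Of 18 counted here, 11 were tested and none passed the test across all genes. At an unadjusted p under 0.05, 3 were lower and 0 higher, beside 7.01% and 6.45% of all genes tested. Serpinb2, a serpin that inhibits the urokinase-type activator, was at 82.0, 147 and 360.0 CPM in the control libraries and at 88.1, 99.7 and 41.4 CPM in the AKBA libraries. Control gel replicates 2 and 3 were the highest and control gel replicate 1 was below AKBA gel replicates 1 and 2, so the groups overlap. The log2 fold change was -1.36 ± 0.55 (SE, edgeR adjusted p = 0.353). The other genes at that level were Lrp1, an endocytic receptor that clears complexes of activator and inhibitor (1066 ± 81.6 against 731 ± 168 CPM, SD, n = 3 each), and Mrc2, a collagen receptor that binds the urokinase receptor (115 ± 4.93 against 92.1 ± 14.3 CPM). Plasminogen itself, Plg, had 0, 3 and 2 counts in the control libraries and 0, 0 and 2 in the AKBA libraries, at or under 3 counts and too few for a fold. Plasminogen is made mainly in the liver. The plasminogen receptor Plgrkt was at 32.5 ± 6.32 against 37.1 ± 4.01 CPM and the protease St14 at 101 ± 25.9 against 101 ± 14.8 CPM. The median of the 11 was -0.32. The number lower at that level was 0 without AKBA gel replicate 1 and 1 without AKBA gel replicate 2 or control gel replicate 3. With AKBA gel replicate 2 and control gel replicate 3 both left out, 0 of the 11 were at an unadjusted p under 0.05 by edgeR.

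The partners of Tnc and Thbs1 in the matrix and on cells were counted in the same way. Of 12 genes (tenascins, their integrin and syndecan receptors, and fibronectin) 11 were tested, with a median of -0.29. At an unadjusted p under 0.05 were Itgb1 (-0.60 ± 0.17), Itgav (-0.28 ± 0.10), which are integrin chains, and fibronectin, Fn1 (-0.53 ± 0.16), and no gene was higher. Over all genes tested, 7.01% were lower and 6.45% higher at that level. DESeq2 called Fn1 (adjusted p = 0.044), which was at 693 ± 45.6 CPM in the control group and 480 ± 70.7 CPM in the AKBA group (SD, n = 3 each). The other tenascins Tnxb (609 ± 60.7 against 457 ± 106 CPM) and Tnn (7.81 ± 3.20 against 7.06 ± 3.35 CPM) differed far less than Tnc between the means, a contrast that was not tested. Of 9 thrombospondins and their receptors, 4 were lower at that level, namely Thbs3, the integrin chains Itga3 and Itga6 and the chaperone Calr, with a median of -0.49 for the 9. That count was 1 without control gel replicate 3, and 2 without AKBA gel replicate 1 or without control gel replicate 2. With AKBA gel replicate 2 and control gel replicate 3 both left out, it was 0 for the thrombospondin list and 0 for the tenascin list. Thbs2, the nearest relative of Thbs1, was at 303 ± 64.5 against 242 ± 74.6 CPM, and the receptor Cd47 at 97.2 ± 3.79 against 96.2 ± 1.70 CPM.

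The genes around activin did not all share a direction: 13 of 19 tested were below 0 (68.4%, beside 49.6% of all genes tested). At an unadjusted p under 0.05 stood 7.01% of all genes tested as lower and 6.45% as higher. Of the 19, 3 were lower (Smad7, Tgfb1 and the receptor Tgfbr2) and 1 higher (Fst) at that level, and the median was -0.10. The number lower was 0 without AKBA gel replicate 1 or 2, 1 without control gel replicate 2 and 5 without AKBA gel replicate 3. The number higher was 0 without AKBA gel replicate 1, control gel replicate 2 or control gel replicate 3, and 2 without control gel replicate 1. With AKBA gel replicate 2 and control gel replicate 3 both left out, 1 was lower and 0 higher. Follistatin, Fst, which binds and blocks activin, was at 33.0, 25.3 and 18.1 CPM in the control libraries and at 39.5, 32.0 and 38.3 CPM in the AKBA libraries. Its groups overlap, since AKBA gel replicate 2 was below control gel replicate 1 (0.52 ± 0.21, edgeR adjusted p = 0.358). The activin receptors Acvr1b (107.5 ± 11.7 against 130 ± 10.2 CPM) and Acvr2a (48.1 ± 2.61 against 57.4 ± 6.66 CPM) had higher means under AKBA gel. Acvr1c (5.72 ± 2.56 against 4.93 ± 1.34 CPM) and Acvr2b (2.72 ± 0.914 against 2.51 ± 0.131 CPM), also activin receptors, had lower means under AKBA gel by less than the SD of the control group. The second activin chain Inhbb was at 47.5 ± 13.2 against 45.9 ± 10.4 CPM. Smad7, an inhibitor that TGF-β family signals induce, was at 19.3 ± 3.83 against 13.8 ± 1.14 CPM.

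Genes of keratinocyte migration and provisional matrix had the lowest median of the lists, at -0.72 over 23 tested of 24. By edgeR 15 were lower and 0 higher at an unadjusted p under 0.05, beside 7.01% and 6.45% of all genes tested. None passed the test across all genes. DESeq2 called 1.68% of the genes it adjusted and 8 of the list (Mmp9, Timp1, Epgn, Krt6a, Mmp13, Hbegf, Itga5 and Cyr61). With AKBA gel replicate 2 and control gel replicate 3 both left out, 9 were lower at that unadjusted level and the median was -0.52. Epgn, a ligand of the EGF receptor, was at 12.6, 36.9 and 83.2 CPM in the control libraries and at 2.99, 5.37 and 5.71 CPM in the AKBA libraries, and the collagenase Mmp13 at 0.762, 16.9 and 10.7 against 0.540, 0.159 and 0.639 CPM. For both, the control libraries 2 and 3 were high and all AKBA libraries were below all control libraries, which held for 9.1% of all genes tested. Mmp13 had 16, 388 and 224 counts in the control libraries and 11, 3 and 15 in the AKBA libraries. Its gap between control gel replicate 1 and AKBA gel replicate 3 was thus within counting error. Other members at that level included Itga5, the fibronectin receptor chain (54.7 ± 12.4 against 33.1 ± 4.60 CPM), and Met, the receptor of hepatocyte growth factor (30.1 ± 7.46 against 19.2 ± 0.599 CPM). The others at that level were Areg, Ctgf, Krt6b, Krt16, Itgb4 and Cd44, from -2.64 (Krt6b) to -0.46 (Itgb4). Fermt1, Snai2 and Lamb3 lay between -0.12 and 0.11. Several of these genes were known from earlier results of these data when the list was written, so its count is no independent evidence of its direction.

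**Figure D4:**
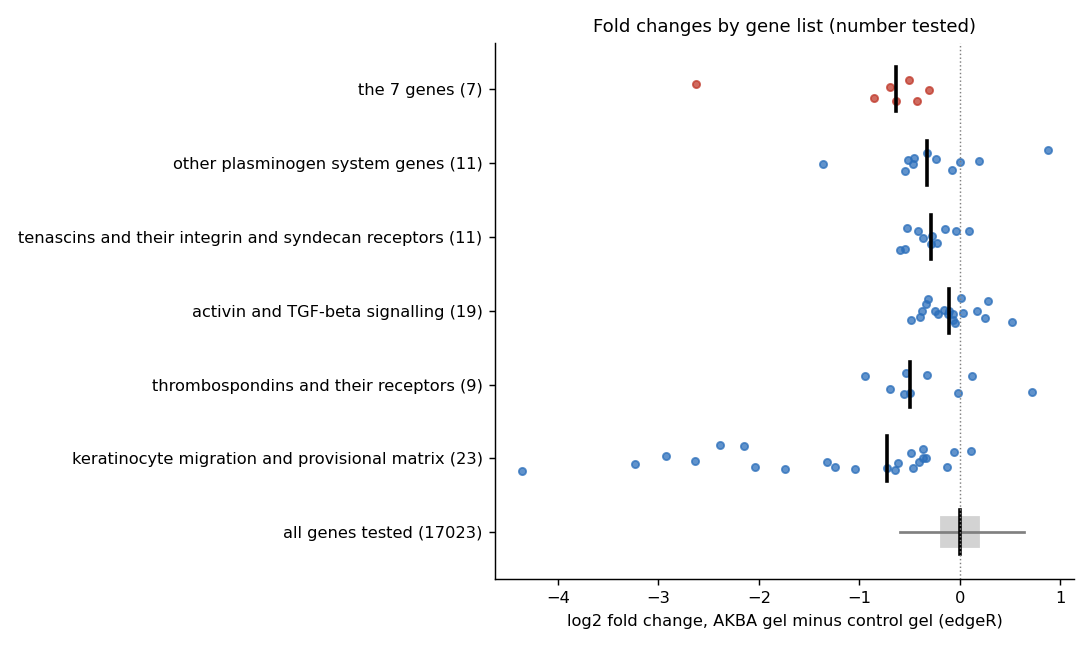
Log2 fold change, AKBA gel minus control gel (x axis), of each tested gene (points) in the 7 genes and in 5 gene lists, with the median as a black line. For all 17023 genes tested the box spans the 25th to the 75th percentile (-0.18 to 0.19) and the line the 5th to the 95th (-0.60 to 0.64). The medians of the 7 genes and of the 5 lists shown lie below that of all genes. Among the marker lists, not shown, medians ran from -0.54 (immediate early genes) to 0.27 (skeletal muscle). Fibroblast and macrophage markers were each at -0.35 and endothelial markers at -0.33. Hair follicle (0.02) and melanocyte markers (0.05) lay above all genes, as did skeletal muscle.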

How the data were processed

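The authors deposited 1 table with a whole-number count and an FPKM value per gene and library and, per the file headers, their own log2 fold change, p-value and adjusted p-value. The submitters' processing notes name CASAVA 1.8, RSEM, edgeR and the build GRCm38, and neither the role of each tool nor the annotation release is given in the sources used. Strand-specific counting is not stated: Tnc and Thbs1 share exon positions with a gene on the other strand, whose deposited counts were at most 57 and 0. The deposited counts were tested with edgeR 4.0.16 in R 4.3.3 (TMM scaling, default low-count filter, 2-sided quasi-likelihood F test on group, Benjamini-Hochberg over 17023 genes, threshold 0.05). The standard error is the size of the log2 fold change divided by the square root of F. CPM are TMM-scaled counts and are compared within a gene, and the authors' FPKM between genes. A count of 3 equals 0.128 to 0.159 CPM, for counting error only. Alternatives were other scalings and filters, DESeq2 1.42.0, the replicate number as a block and libraries left out. No libraries were merged, since the chi-square of their counts was 28.3 or more times its degrees of freedom within each group. Positions are from GENCODE M21 on GRCm38. The 7 genes, the 5 pathway lists and the 11 marker lists were chosen with earlier results of these data known. Genes named from a pathway list were those at an unadjusted p under 0.05, or the most abundant, and Serpinb2 and Plg. Some listed genes are not reported here and are in no count. Other list genes given by their levels, such as Plgrkt, St14, Tnxb, Thbs2, Cd47, Inhbb and Fermt1, were chosen after their values were seen. The fit was also run on simulated counts that had the same dispersion for every gene. That run cannot tell how many true differences the fit would find in these libraries.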

Additional observations from a re-analysis of the deposited data

How the results depend on the processing

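No member passed an adjusted p of 0.05 in any of 13 alternatives, where the lowest adjusted p was 0.107 (Tnc without control gel replicate 1). Of 90 log2 fold changes of the 7 genes under these alternatives 89 were below 0. The exception was Inhba without control gel replicate 2 (0.0092), which ran from -1.04 to 0.0092 with 1 library left out. These 90 values are refits of the same libraries and not independent, so their shared sign adds little to the main fit. Over all genes, DESeq2 called 292, and edgeR with 1 library left out called 0 to 14. The number of members at an unadjusted p under 0.05 was 1 to 4 with 1 library left out, though not always the same members. It was 1 with AKBA gel replicate 2 and control gel replicate 3 both left out. Inhba was not tested under the stricter filter. With the replicate number as a block 3 members were at an unadjusted p under 0.05 in place of 4 (Tnc -2.05, unadjusted p = 0.0667), and 0 genes were called. The deviations of same-numbered libraries correlated at 0.0724, 0.0185 and -0.327, and those of differently numbered libraries at -0.483 to 0.434. With 3 libraries per group these values cannot settle whether the numbers pair the libraries. Counting error is largest for Inhba (35 to 170 counts), while Tnc had 677 counts or more in each library. The cause of these changes was not tested.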

Other observations

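The level of Plau beside that of its inhibitor and its receptor was also read within each library, per length. The ratio of Plau to Serpine2 in FPKM was 3.78 to 5.52 in the control libraries and 4.18 to 5.82 in the AKBA libraries, which overlap. The ratio of Plau to its receptor Plaur was lowest in control gel replicate 2 (3.56) and highest in control gel replicate 3 (12.6), so both ends of its range lay within the control group. These ratios were chosen after the values were seen and were not tested.

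Mmp10, a stromelysin made by migrating keratinocytes, did not pass the filter on low counts. It had 4, 62 and 24 counts in control gel replicates 1 to 3 and 1, 6 and 1 in AKBA gel replicates 1 to 3.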
